A study of Homo sapiens with 8 samples.

Results

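Knockdown of NAT10 in DLD-1 cells was examined through 4 of the 8 RNA-seq libraries of a study on NAT10 in colorectal cancer. The members were chosen by their labels, as all libraries of the DLD-1 line, and every gene of the count table was considered. DLD-1 is an established human colorectal adenocarcinoma line. The cells were grown in DMEM with fetal bovine serum and antibiotics, and the cells of all 8 libraries carried a lentiviral hairpin, either a control short hairpin virus (shControl, labelled WT) or a virus with a short hairpin against NAT10 (shNAT10, labelled NAT10 knockdown). Each group had 2 libraries, labelled as biological replicates, and nothing states that they came from separate cultures, so that p-values measure the spread between these libraries, which may be technical. The other 4 libraries have the same design in SW480, another colorectal cancer line, and serve here for comparison only. Poly(A)-selected RNA of whole cultures was sequenced from a single end. As a model the knockdown has limits, since it leaves part of the transcript in place, the study describes a pair of NAT10 hairpins of which the labels do not name the one that was sequenced, and no rescue library was analysed here. In bulk RNA, fewer cells that express a gene and less RNA per cell cannot be told apart.

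NAT10 is the acetyltransferase that places N4-acetylcytidine (ac4C) on RNA. It acetylates 18S ribosomal RNA and, with the adaptor THUMPD1, certain transfer RNAs, and ac4C has also been described on messenger RNA. Interferons of type I and the lambda (type III) interferons, which act mainly on epithelial cells, switch on a common programme of interferon-stimulated genes through a transcription factor complex that holds STAT2 and IRF9. These genes include the IFIT and OAS families, which bind foreign RNA, and genes of antigen presentation.

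The hairpin targets are shown because a short hairpin can lower NAT10 and also other transcripts with a similar site. Each line below gives the 19 bases of NAT10 mRNA that a hairpin of the study targets, 5′ to 3′, with the site that pairs with bases 2 to 8 of the guide strand (the seed) in capitals.
shNAT10-1 target: ggccaaagctgTCTTGAAa
shNAT10-2 target: cagtgacgaccTAGATGAa
TARS2 site with its run shared with the shNAT10-1 target in capitals: atCCAAAGCTGTCTTGAtt
On the GRCh38 build both NAT10 targets lie in coding sequence on the plus strand of ENST00000257829.7, which has 29 exons. The first spans the junction of exons 8 and 9, between chr11:34118503-34122476, and the second the junction of exons 26 and 27, between chr11:34141805-34142280. The TARS2 run of 15 bases lies in coding exon 8 of 14 of ENST00000438568.6, at chr1:150498911-150498925 on the plus strand. Among the other genes called below, the longest run shared with the shNAT10-1 target had 11 bases, in LARS2, and that of CCL20 had 9.

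NAT10 mRNA (Entrez gene 55226) was at 121 and 121 CPM (counts scaled to library size by TMM) in the shControl libraries and at 59.1 and 54.5 CPM in the shNAT10 libraries, so the groups did not overlap. The log2 fold change was −1.09 (standard error 0.069, adjusted p = 2.3e-08, edgeR), which left 47.0% of the control level. In SW480 cells the log2 fold change was −2.25 (standard error 0.087), and the difference between the lines of 1.16 had an adjusted p of 0.0015 in edgeR's interaction test. NAT10 was the only gene to pass that test, 0.00734% of the 13619 genes tested. The knockdown was therefore the weaker one in DLD-1 cells.

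At an adjusted p under 0.05, 13 genes were lower (0.104% of the 12482 genes tested) and 25 higher (0.200%) in DLD-1 shNAT10 cells, and both shNAT10 libraries lay outside the range of the shControl libraries for all 38. Most of these changes were small. Of the 38, NAT10 and CDRT4 changed by more than 2-fold, and the median absolute log2 fold change over all genes tested was 0.075. Libraries that do not overlap are common in a design of 2 against 2, with 18.7% of the tested genes higher and 18.7% lower in this sense. The number called depended on which libraries set the spread. When all 8 libraries were fitted in one model, NAT10 and TARS2 kept the call, no gene was higher (812 genes had an unadjusted p under 0.05), and the next lowest adjusted p among the 38 was 0.060. The biological coefficient of variation was 0.0472 between DLD-1 replicates and 0.0674 between SW480 replicates. With DESeq2 on the DLD-1 libraries, 11 genes were lower and 20 higher. The numbers lower and higher were 15 and 40 without shControl replicate 1, 97 and 122 without shControl replicate 2, 17 and 14 without shNAT10 replicate 1, and 23 and 39 without shNAT10 replicate 2. At the limits stated in the study (fold change below 0.83 or above 1.2, unadjusted p under 0.05) 166 genes were lower (1.33%) and 175 higher (1.40%), and without shControl replicate 2 these were 348 and 407. Without shNAT10 replicate 2 they were 228 and 302. The calls of 9 genes held with each library left out in turn, namely those of NAT10, TARS2, CCL20, OAS2, IFIT2, IFITM1, IFNL1, TRIM22 and TXNIP.

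**Figure D1:**
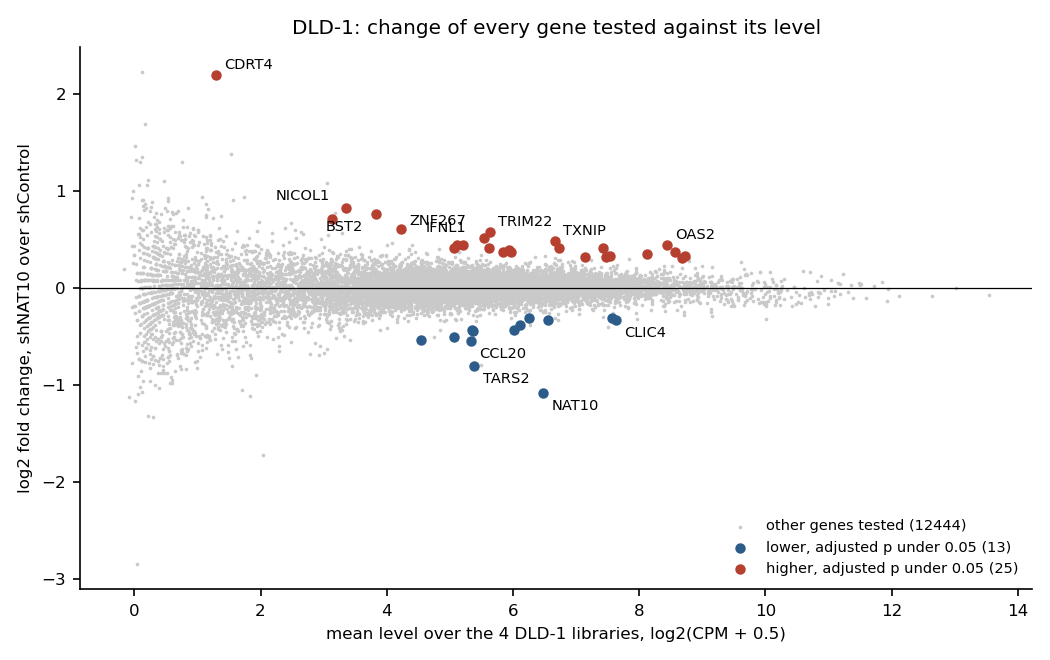
Each point is 1 of the 12482 genes tested in DLD-1 cells. The horizontal axis is the mean level over the 4 libraries as log2(CPM + 0.5) and the vertical axis the log2 fold change of shNAT10 over shControl, with the 13 lower genes in blue and the 25 higher genes in red. The called genes lie near the edge of the cloud at their level, and NAT10 stands lowest among them at −1.09.

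The genes that fell besides NAT10 included a chemokine, a growth factor and a pair of mitochondrial tRNA synthetases. TARS2, which charges the mitochondrial threonine tRNA, was at 54.7 and 50.5 CPM in shControl and 31.0 and 29.1 CPM in shNAT10 libraries. It fell by the largest amount after NAT10, its log2 fold change being −0.81 (standard error 0.081, adjusted p = 3.3e-05, edgeR), and it holds the 15-base run printed above. LARS2, which charges the mitochondrial leucine tRNA, was at 68.7 and 78.6 CPM in shControl and 56.9 and 51.8 CPM in shNAT10 libraries, and its log2 fold change was −0.44 (standard error 0.079, adjusted p = 0.022, edgeR). These were the 2 called genes of the 17 mitochondrial aminoacyl-tRNA synthetases, beside 0.104% called lower over all genes tested. Of the 17, 9 had a negative and 8 a positive log2 fold change. The median was −0.0019 beside 0.0011 over all genes tested.

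CCL20, a chemokine that attracts CCR6-bearing lymphocytes and dendritic cells, was at 50.6 and 43.8 CPM in shControl and 32.6 and 31.8 CPM in shNAT10 libraries, a log2 fold change of −0.55 (standard error 0.085, adjusted p = 0.0059, edgeR). AREG encodes amphiregulin, a ligand of the EGF receptor. It was at 219 and 199.8 CPM in shControl and 173 and 164 CPM in shNAT10 libraries, and its log2 fold change was −0.31 (standard error 0.066, adjusted p = 0.048, edgeR). FOXQ1, a forkhead transcription factor, went from 82.5 and 72.5 CPM to 62.7 and 56.2 CPM (log2 fold change −0.38, adjusted p = 0.042, edgeR). CD55, the decay-accelerating factor that shields cells from complement, went from 111 and 97.8 CPM to 83.5 and 81.6 CPM (log2 fold change −0.34, adjusted p = 0.049, edgeR). In each of these genes both shNAT10 libraries were the low ones.

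The other lower genes come from unrelated processes. TUBE1, which encodes epsilon-tubulin of the centriole, was at 29.6 and 24.6 CPM in shControl and 19.2 and 18.1 CPM in shNAT10, and TSC22D3, the glucocorticoid-induced leucine zipper, at 49.5 and 44.7 CPM in shControl and 35.9 and 33.4 CPM in shNAT10. Their log2 fold changes were −0.54 and −0.44 (adjusted p = 0.026 and 0.026, edgeR). CLIC4, of the chloride intracellular channel family, had the highest CPM of the genes that fell, a measure not scaled to transcript length. It went from 227 and 213 CPM to 173 and 176 CPM (log2 fold change −0.33, adjusted p = 0.026, edgeR). FAM107B (−0.43), LRRC75A (−0.32) and the uncharacterised locus LOC102724843 (−0.51) complete the list, with adjusted p from 0.026 to 0.0498 (edgeR). The value of LOC102724843 was −0.18 when curated transcripts alone were counted.

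Sites of the shNAT10-1 seed in the 3′UTR were found in 5 of the 12 lower genes that have a 3′UTR sequence, in 1 of 25 higher genes and in 22.9% of the 12316 tested genes with one. The 5 were CD55, CLIC4, FAM107B, LRRC75A and TUBE1, and the higher gene was OAS2. At the limits of the study the shares were 28.4% of the lower and 15.8% of the higher genes. Sites of the shNAT10-2 seed were found in 2 of 12 lower genes, 1 of 25 higher genes, and 11.8% of all. At the limits of the study its shares were 15.5% of the lower and 8.19% of the higher genes. A match is a description of the sequence, and the part of the hairpins in these falls was not tested.

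**Figure D2:**
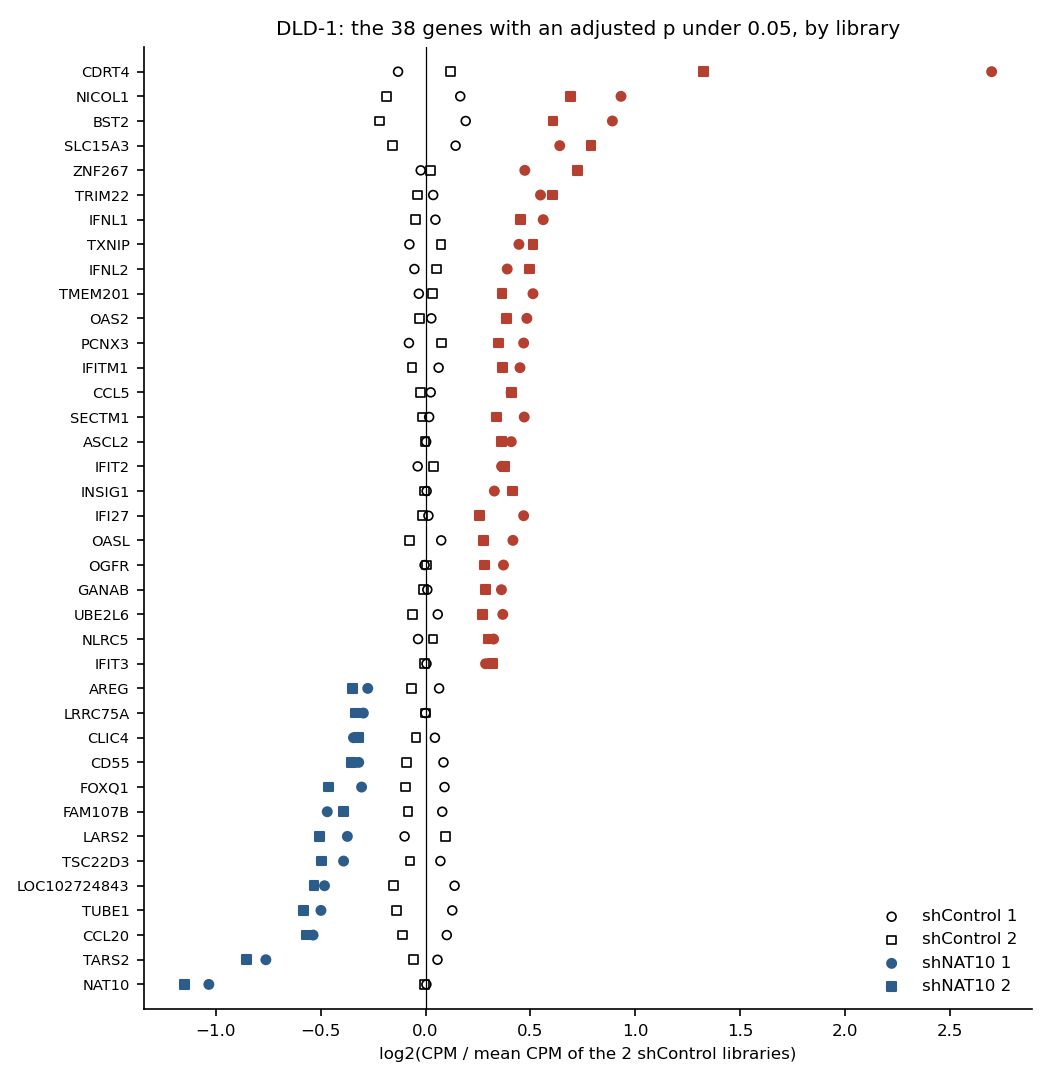
Each row is 1 of the 38 genes with an adjusted p under 0.05, and each symbol 1 library. The horizontal axis is the log2 ratio of its CPM to the mean of the 2 shControl libraries. Open symbols are shControl and filled symbols shNAT10 libraries, and no row has a filled symbol between its open ones. CDRT4 shows the widest gap between shNAT10 replicates.

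The 25 higher genes were led by genes of the interferon response. Of them, 9 belong to lists of interferons and their signalling, interferon-stimulated genes, double-stranded RNA sensors or HLA class I presentation, and 3 of these (IFNL1, IFNL2 and NLRC5) belong only to lists added after values were seen. Another 6, TRIM22, IFITM1, CCL5, UBE2L6, OGFR and SECTM1, are known to respond to interferon but are on none of the lists, and they were put together after their values were seen. The remaining 10 were placed in neither group, and whether any of them responds to interferon was not examined.

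The lambda interferons are secreted ligands that act on epithelium. IFNL1 was at 39.1 and 36.6 CPM in shControl and 55.9 and 51.8 CPM in shNAT10 libraries, a log2 fold change of 0.51 (standard error 0.078, adjusted p = 0.0059, edgeR). IFNL2 was at 29.6 and 31.9 CPM in shControl and 40.3 and 43.4 CPM in shNAT10, a log2 fold change of 0.44 (standard error 0.083, adjusted p = 0.026, edgeR). IFNL3 is nearly identical to IFNL2, so that the division of reads between them is uncertain, and it was at 14.5 and 13.3 CPM in shControl and 18.2 and 20.1 CPM in shNAT10 (log2 fold change 0.46, adjusted p = 0.11, edgeR). IFNB1, which encodes interferon-β, was low at 8.29 and 8.59 CPM in shControl and 11.1 and 10.8 CPM in shNAT10, and its value of 0.37 had an adjusted p of 0.41 (edgeR). In all 4 genes the shNAT10 libraries were the high ones, as they were for 18.7% of all genes tested. Transcripts of these interferons were present in control cells too. The subunits of the lambda receptor, IFNLR1 (0.052) and IL10RB (0.059), differed by less than their standard errors. The list of interferons, receptors and their signalling was chosen after values were seen, and IRF7 and IRF9 are also on the interferon-stimulated list. Of its 22 tested genes, 2 were called higher (0.200% over all genes tested) and 0 lower (0.104%). At an unadjusted p under 0.05 by edgeR, 6 were higher (4.28% over all genes tested) and 2 lower (3.84%). The median was 0.061.

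Interferon-stimulated genes lay above 0 almost throughout. All 32 fixed members were tested, and 30 had a positive log2 fold change against 50.4% of all genes tested. By edgeR 6 were called higher, where the share over all tested genes was 0.200%, and 0 lower. At an unadjusted p under 0.05, 18 were higher, where the share over all tested genes was 4.28%, and 0 were lower, where it was 3.84%. Both shNAT10 libraries lay above both shControl libraries for 24 of them (75.0%, beside 18.7% of all tested genes). The summed level of the list was 10780.0 and 10782 CPM in shControl and 12322 and 12015 CPM in shNAT10 libraries, and its median log2 fold change was 0.16, beside 0.0011 for all genes. With a library left out the median ran from 0.12 without shNAT10 replicate 1, when 2 members were called, to 0.17 without shControl replicate 1, when 6 were. Over the other alternatives it ran from 0.15 to 0.17, and the number called from 0, in the model of all 8 libraries among others (15 with an unadjusted p under 0.05 there), to 10 after a correction for GC content. The list was chosen with earlier results of these data known.

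The called members were effectors against viruses. BST2, or tetherin, which holds budding virions at the cell surface, was at 11.6 and 8.71 CPM in shControl and 18.8 and 15.5 CPM in shNAT10 libraries. Its log2 fold change of 0.76 (standard error 0.14, adjusted p = 0.022, edgeR) was the largest of the list. OAS2, which makes the 2′-5′ oligoadenylates that activate RNase L, was at 300.4 and 289 CPM in shControl and 412 and 385 CPM in shNAT10, a log2 fold change of 0.44 (standard error 0.063, adjusted p = 0.0037, edgeR). OASL, a relative without that enzyme activity, was at 258 and 232 CPM in shControl and 327 and 297 CPM in shNAT10 (0.35, adjusted p = 0.032, edgeR). All 4 libraries of each gene kept their order by group.

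The IFIT family members IFIT2 and IFIT3 had higher CPM values, which are not scaled to transcript length. IFIT2 was at 324 and 341 CPM in shControl and 427 and 432 CPM in shNAT10 libraries, a log2 fold change of 0.37 (standard error 0.062, adjusted p = 0.014, edgeR). IFIT3 was at 366 and 364 CPM in shControl and 445 and 455 CPM in shNAT10 (0.30, adjusted p = 0.037, edgeR), and IFI27 at 54.6 and 53.6 CPM in shControl and 74.9 and 64.7 CPM in shNAT10 (0.37, adjusted p = 0.048, edgeR). Among members that were not called, XAF1 (0.40), IFI44 (0.38) and RSAD2 (0.37) had the largest values, with adjusted p from 0.061 to 0.18 (edgeR). IFIT1 was at 0.26 (adjusted p = 0.11) and ISG15 at 0.16. MX1 (−0.079) and IRF9 (−0.0052) were the 2 members below 0, each within its standard error.

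**Figure D3:**
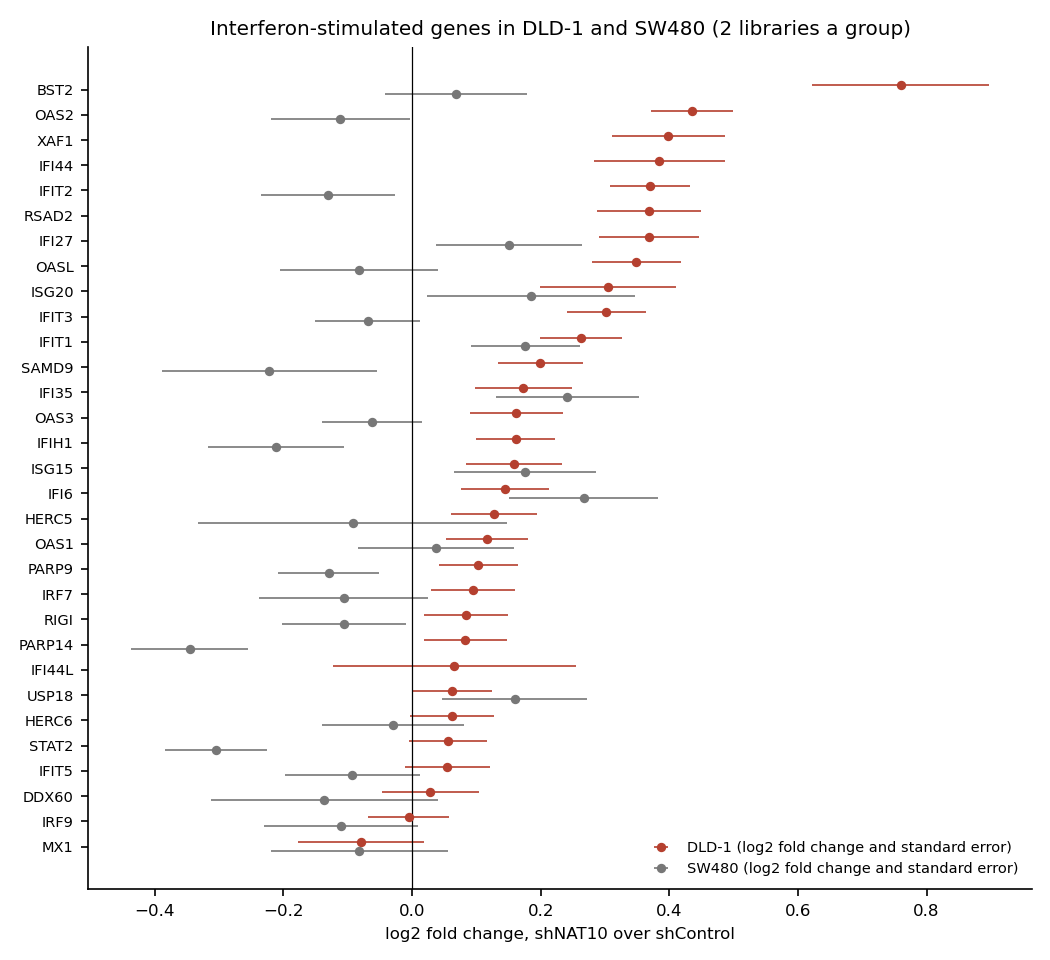
The log2 fold change of shNAT10 over shControl (horizontal axis) is drawn with its standard error for 31 interferon-stimulated genes, in DLD-1 (red) and SW480 (grey). SW480 is left out for XAF1, IFI44, RSAD2 and IFI44L, which had under 20 counts per library there on average. In DLD-1 29 of 31 points lie to the right of 0, and in SW480 9 of 27 do.

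TRIM22, a ubiquitin ligase of the antiviral TRIM family, was the called gene of this kind with the lowest adjusted p. It was at 40.6 and 38.6 CPM in shControl and 57.9 and 60.1 CPM in shNAT10 libraries, a log2 fold change of 0.58 (standard error 0.075, adjusted p = 0.0012, edgeR). IFITM1, which blocks the entry of enveloped viruses, was at 155 and 142 CPM in shControl and 202 and 191 CPM in shNAT10, a log2 fold change of 0.41 (standard error 0.066, adjusted p = 0.009, edgeR). CCL5, a T cell chemokine, was at 28.9 and 28.0 CPM in shControl and 37.8 and 37.8 CPM in shNAT10 (0.41, adjusted p = 0.035, edgeR). The shNAT10 libraries were again the high ones in all 3 genes. UBE2L6, the enzyme that passes ISG15 to its targets, was at 0.32 (adjusted p = 0.041), OGFR at 0.33 (adjusted p = 0.026) and SECTM1 at 0.41 (adjusted p = 0.026), all by edgeR.

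The promoters of these genes are shown because many hold the letters of the element that interferon-driven factors bind. The motif searched, on either strand, was a pair of GAAA copies separated by any 2 bases. It was found within 250 bases before to 50 bases after the start for 9 of 16 higher genes with a RefSeq promoter (56.2%), for 0 of 11 lower genes, and for 4.03% of the 10215 tested genes with one. It was present for 19 of 26 members of the interferon-stimulated list (73.1%) and for 4.38% of all genes with a RefSeq promoter. A gene was counted if any of its promoters held the motif. At the limits of the study it was found for 16.2% of the higher and 4.20% of the lower genes. The windows of 5 genes, 30 bases each, follow in the direction of each gene, with the motif or its reverse complement in capitals, from RefSeq on GRCh38.p14.
IFNL1, chr19:39296183-39296212, plus strand: gttctaaggaTTTCAGTTTCtctttccttc
BST2, chr19:17405741-17405770, minus strand: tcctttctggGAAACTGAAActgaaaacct
IFIT3, chr10:89332425-89332454, plus strand: acagattctgTTTCAGTTTCccctcaagag
IFI27, chr14:94110618-94110647, plus strand: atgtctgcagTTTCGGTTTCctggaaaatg
OGFR, chr20:62804803-62804832, plus strand: cttcctctgcTTTCGGTTTCgcttccgcct
The other 4 higher genes with a match were IFITM1, IFNL2, SECTM1 and PCNX3. PCNX3, like IFITM1, SECTM1 and OGFR, is on none of the interferon lists, and a match is not a bound site.

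Sensors of double-stranded RNA, which lie upstream of interferon, and class I presentation, which lies downstream, had smaller medians than the interferon-stimulated genes. Of the 21 sensors and related genes, a list chosen after values were seen, 19 had a positive log2 fold change (50.4% over all genes tested). The median was 0.084. OAS2 was the 1 called (0.200% over all genes tested). OAS1, OAS2, OAS3 and IFIH1 are also on the interferon-stimulated list, so the lists overlap and their values are not separate observations. At the limits of the study 3 were higher (1.40% over all genes tested), among them DHX58 (0.34, adjusted p = 0.34, edgeR). The largest value was 0.86, in a gene that was not called. IFIH1, which encodes the sensor MDA5, was at 205 and 210.2 CPM in shControl and 228 and 236 CPM in shNAT10 (0.16, adjusted p = 0.49, edgeR). RIGI was at 0.084, TLR3 at 0.12 and the editing enzyme ADAR at 0.11, with adjusted p from 0.70 to 0.80 (edgeR). The RNA interference genes DICER1 (−0.028), AGO2 (0.037) and XPO5 (0.0038) differed by less than their standard errors.

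All 20 class I genes, a list also chosen after values were seen, had a positive log2 fold change (50.4% over all genes tested), with a median of 0.13. Of them 1 was called higher (0.200% over all genes tested). That gene was NLRC5, the transactivator of class I genes, at 122 and 129 CPM in shControl and 157 and 154 CPM in shNAT10 libraries, a log2 fold change of 0.31 (standard error 0.063, adjusted p = 0.037, edgeR). At an unadjusted p under 0.05, 7 members were higher, where the share over all tested genes was 4.28%. Among them PSMB9, an immunoproteasome subunit (0.25), the peptide transporter TAP1 (0.22), HLA-E (0.20) and HLA-B (0.20) had adjusted p from 0.24 to 0.33 (edgeR). B2M, the light chain of class I molecules (0.0078), differed by less than its standard error.

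The higher genes placed in neither interferon group came from several processes. TXNIP, which binds thioredoxin and limits glucose uptake, was at 79.8 and 88.5 CPM in shControl and 115 and 120.0 CPM in shNAT10 libraries, a log2 fold change of 0.48 (standard error 0.069, adjusted p = 0.0037, edgeR). Its relative ARRDC4, named after its values were seen and induced by the same glucose-responsive factors, was at 17.3 and 17.5 CPM in shControl and 22.9 and 24.3 CPM in shNAT10 (0.44, adjusted p = 0.063, edgeR). ASCL2, a transcription factor of intestinal stem cells and a Wnt target, was at 52.9 and 52.7 CPM in shControl and 70.1 and 68.0 CPM in shNAT10, a log2 fold change of 0.39 (standard error 0.070, adjusted p = 0.022, edgeR). GANAB is the catalytic subunit of glucosidase II and the 1 called of 22 genes of ER glycoprotein folding (0.200% over all genes tested). It was at 379 and 375 CPM in shControl and 485 and 459 CPM in shNAT10 (0.32, adjusted p = 0.026, edgeR). INSIG1, which retains the sterol sensor SCAP in the endoplasmic reticulum, was at 49.9 and 49.6 CPM in shControl and 62.5 and 66.2 CPM in shNAT10 (0.37, adjusted p = 0.026, edgeR). For these genes too the groups did not overlap.

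ZNF267, a zinc finger gene, was at 14.4 ± 0.325 CPM in shControl and 21.9 ± 2.70 CPM in shNAT10 (SD, n = 2 each), with groups that did not overlap, and SLC15A3, a lysosomal transporter of peptides and histidine, at 6.94 and 5.63 CPM in shControl and 9.79 and 10.9 CPM in shNAT10. Their log2 fold changes were 0.60 and 0.71 (adjusted p = 0.023 and 0.045, edgeR). TMEM201, a protein of the inner nuclear membrane (0.44), and PCNX3 (0.41) had adjusted p of 0.026 and 0.017 (edgeR), and with curated transcripts alone their values were 0.28 and 0.20, and that of SECTM1 0.22. NICOL1 was at 7.94 and 6.22 CPM in shControl and 13.5 and 11.4 CPM in shNAT10 (0.82, adjusted p = 0.022, edgeR), while the SW480 shControl replicates had 58 and 180 counts of it. GANAB, IFIT3, NLRC5, UBE2L6, OGFR, OASL, IFI27, INSIG1, IFIT2 and ASCL2 lie outside the 15 largest rises and are named because they are the other called genes.

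CDRT4 had the largest log2 fold change of the called genes, 2.19 (standard error 0.42, adjusted p = 0.026, edgeR), and the fewest reads. The table gave it 11 and 13 counts in the control libraries and 78 and 27 with shNAT10. The value was 1.32 without shNAT10 replicate 1 and 0.84 on log2(FPKM + 1). CDRT4 shares exons with the read-through gene TVP23C-CDRT4, whose value was negative (−0.54, adjusted p = 0.14, edgeR), and in SW480 it had 27 and 56 counts in the control libraries and 1 and 95 with shNAT10. Reads of the shared exons were divided between these genes by the authors' counting, so its change is uncertain.

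Among the other fixed lists no more than 1 gene per list was called, apart from the mitochondrial synthetases, and medians were small. The unfolded protein and integrated stress response had the lowest median of the pathway lists (−0.091 over 29 tested genes). None of its genes was called, and 10 were lower and 3 higher at an unadjusted p under 0.05, which 3.84% of all tested genes passed as lower and 4.28% as higher. The counts at this limit in the lists that follow are to be read against the same shares. Their called genes are to be read against 0.104% lower and 0.200% higher, and positive values against 50.4%, over all genes tested. At the limits of the study 6 genes of the stress response list were lower and 0 higher (1.33% and 1.40% of all genes tested). The 6 were the ATF4 targets ASNS (−0.32), PSAT1 (−0.29) and CHAC1 (−0.27), with VLDLR (−0.44), DNAJB9 (−0.33) and DDIT4 (−0.30). Their adjusted p ran from 0.11 to 0.50 (edgeR). The cytosolic aminoacyl-tRNA synthetases, many of which belong to the same ATF4 programme, had a median of −0.085, with 12 of 20 below 0 and 0 called (6 lower and 1 higher at an unadjusted p under 0.05). Oxidative phosphorylation genes had 27 of 34 below 0 and a median of −0.058, with 0 called and 3 lower at an unadjusted p under 0.05, among them NDUFA1 (−0.27, adjusted p = 0.36, edgeR).

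Lists with a median above 0 included the cytosolic heat shock response and Wnt targets. Of 17 heat shock genes 15 were positive, with a median of 0.089 and 0 called (5 higher at an unadjusted p under 0.05). HSPA1B was at 131 and 183 CPM in shControl and 191 and 216 CPM in shNAT10 (0.38, adjusted p = 0.21, edgeR), and BAG3, its cochaperone, at 0.28 (adjusted p = 0.11). HSPA1B is nearly identical to HSPA1A, so its reads are uncertain. Of 27 Wnt targets 23 were positive, with a median of 0.069, and ASCL2 was the 1 called, with MYC at 0.17 (adjusted p = 0.44, edgeR). Cholesterol and fatty acid synthesis genes were positive in 23 of 29 cases, with INSIG1 called and a median of 0.045, while PMVK was at −0.40 (adjusted p = 0.37, edgeR).

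In the NF-κB list CCL20 was the 1 called of 22 tested genes and CXCL10, which interferon also induces, was at 0.35 (adjusted p = 0.55, edgeR), with a list median of −0.053. Of 29 immediate early and MAPK feedback genes AREG was called and ETV5 was at −0.34 (adjusted p = 0.18, edgeR), with 6 lower and 4 higher at an unadjusted p under 0.05 and a median of 0.016. Of 33 ribosome biogenesis genes, which build the ribosome that NAT10 acetylates, NOLC1 came nearest (0.30, adjusted p = 0.061, edgeR) and the median was 0.036. The 12 partners of NAT10 in RNA acetylation had 0 called, 0 at an unadjusted p under 0.05, and a median of −0.017.

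The remaining pathway lists had medians from −0.057 to 0.030 and 0 called genes. G2 and M phase genes had 1 of 30 at an unadjusted p under 0.05, p53 targets 3 of 20, all lower, with TP53INP1 at −0.88 on few reads (1.41 and 1.01 CPM in shControl and 0.826 and 0.461 CPM in shNAT10), and BCL2 family genes 0 of 15. The epithelial junction gene CLDN2 was at 0.35, the actin regulator TPM4 at 0.27, CEACAM1 of intestinal differentiation at 0.42 and the export factor THOC1 at −0.27, with adjusted p from 0.11 to 0.49 (edgeR). Lists of S phase, glycolysis, NRF2 targets, mesenchymal genes, lysosome, ubiquitin ligases and TOR signalling had 0 members past the limits of the study.

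The genes on which the study centred made up another list, of which NAT10 was the 1 called of 15. KIF23 was at 137 and 142 CPM in shControl and 135 and 139 CPM in shNAT10, a log2 fold change of −0.023 that was 0.61 when curated transcripts alone were counted. GSK3B was at −0.0042, CTNNB1 at 0.085, CCND1 at 0.068, BIRC5 at −0.099, BCL2L1 at −0.076 and MKI67 at 0.060. HNRNPH3 was at −0.15, HNRNPA2B1 at −0.13, NAP1L4 at −0.037, PALS2 at 0.053, UBA1 at 0.023 and POU2F1 at 0.11. By edgeR HNRNPH3 and MYC had an unadjusted p under 0.05.

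The called genes were set beside SW480, whose libraries share no control with DLD-1. Of the 38 genes, 34 had at least 20 counts per SW480 library on average, and 26 of these had the same sign in both lines, beside 54.7% of 11676 tested genes. The sign was shared by 11 of the 13 lower genes and by 15 of 21 higher genes. Some of the 34 were also called in SW480, at an adjusted p under 0.05 by edgeR in the model of 8 libraries. No share over all genes tested is given for SW480, so their number is not read as a result. Among lower genes, those called in both lines were NAT10, the target of the hairpin, LARS2 (−0.88), CCL20 (−1.17), TARS2 (−1.31), CLIC4 (−0.56) and FOXQ1 (−0.46). Among higher genes they were ASCL2 (0.89), GANAB (0.76), ZNF267 (0.73), OGFR (0.67) and PCNX3 (0.46). Apart from NAT10, the difference between the lines passed its test for 0 of these genes, with adjusted p from 0.17 to 0.91 (edgeR).

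Interferon transcripts were almost absent in SW480. There IFNL2 and IFNL3 had 0 counts in every library, which allows up to 3 counts per library, and IFNL1 had 0 and 3 counts in the control libraries and 0 and 0 with shNAT10, so no fold is given. TRIM22 had 4 and 7 counts in the control libraries and 3 and 8 with shNAT10. The 28 interferon-stimulated genes with enough counts had a median of −0.087 there, and 9 were positive, against 5572 of 11676 genes. OAS2 was at −0.11 (standard error 0.11), IFIT2 at −0.13 (standard error 0.10) and NLRC5 at −0.23 (standard error 0.086). For 12 of the 28 the difference between the lines had an unadjusted p under 0.05, beside 9.38% of all genes tested, and it passed adjustment for 0 (edgeR). The adjusted p of the difference was 0.39 for OAS2 and 0.17 for NLRC5, which is not on the list. Under DESeq2 the difference passed for 21 genes of all tested. The lines also differed in how far NAT10 fell and in their starting level of these genes, and the part of either in the contrast was not tested.

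**Figure D4:**
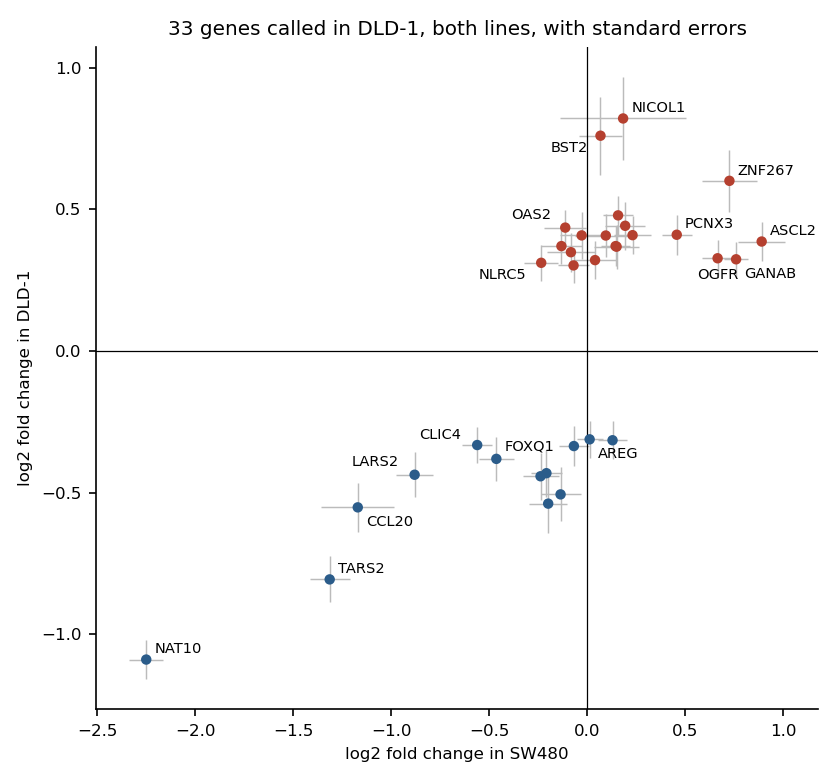
For 33 of the genes called in DLD-1, the log2 fold change in SW480 (horizontal axis) is plotted against that in DLD-1 (vertical axis), each with its standard error. IFNL1, IFNL2, SLC15A3 and TRIM22 are left out for low SW480 counts and CDRT4 for its uncertain reads. NAT10, TARS2, CCL20 and LARS2 lie farthest to the left. Among the red points of interferon genes, OAS2 (−0.11) and BST2 (0.068) lie near 0 in SW480. NLRC5 (−0.23) lies to the left of 0 there and OGFR (0.67) to the right.

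The DLD-1 libraries held 15147805 to 17137422 assigned counts, and the smallest, shNAT10 replicate 2, was in the knockdown group. Colon epithelial markers were present, with 9 of 9 listed and summed levels from 7508 to 8108 CPM, although VIL1 and LGALS4 were low (at most 6.84 and 1.35 CPM). The 13 listed fibroblast, immune and endothelial markers summed to 21.3 to 25.2 CPM, of which CD68 made up at most 21.5, and LUM was at 0 in all 4 libraries. None of these markers was called.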

How the data were processed

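Sequencing of poly(A) RNA from DLD-1 and SW480 cells, in 4 shControl and 4 shNAT10 libraries, was carried out by BGI on the BGISEQ-500. The authors deposited estimated counts per transcript, and FPKM values per transcript that are scaled to length and library size. The submitters' processing notes name HISAT2 2.0.4, Bowtie2 2.2.5, RSEM 1.2.12 and hg38, with no role for each. Columns with the authors' mean of each group were not used, nor were SW480 FPKM values. The library protocol describes no strand marking, so reads of overlapping antisense genes cannot be told apart.

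Estimated counts of 78953 transcripts were summed over 17309 gene identifiers (99.3% named from RefSeq) and rounded to whole numbers. Genes passed filterByExpr (minimum count 10, minimum total 15), which left 12482 in the 4 DLD-1 libraries and 13619 in the 8. Counts were TMM-scaled and tested by edgeR 4.0.16 (quasi-likelihood F test, Benjamini-Hochberg adjustment over all genes tested, R 4.3.3). Standard errors were obtained from the F statistic as |log2 fold change| over its square root. SW480 values and the difference between lines come from 1 model of 8 libraries and are given for genes with at least 20 counts per SW480 library on average. DESeq2 1.42.0, limma 3.58.1 on log2(FPKM + 1) and log2(FPKM + 0.1), a replicate block, other scalings and filters, thinning, GC correction and leaving out each library were alternatives. The scripts were tested on simulated data. Totals of 15147805 to 17271336 counts per library limit the precision for low genes. Reads shared by near-identical or overlapping genes were divided by the authors' counting.

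Named genes are the called genes with the 15 largest changes in each direction, list members past the limits of the study, and the genes whose protein or mRNA the study followed up. The other called genes and 3 lists were added after their values were seen. Members and lists were chosen with earlier results of these data known. Promoters are from RefSeq (GRCh38.p14) and transcripts from GENCODE v29 (GRCh38). RefSeq held a promoter for 10215 of the tested genes. Some list members are counted but not reported here by name.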

Additional observations from a re-analysis of the deposited data

Results flagged for a closer look

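The response of NAT10 itself differed between the lines by the test of the difference. The DLD-1 minus SW480 log2 fold change was 1.16 (adjusted p = 0.0015, edgeR interaction term), from −1.09 in DLD-1 and −2.25 in SW480, with both shNAT10 libraries below both shControl libraries in each line.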

How the results depend on the processing

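Of the 38 called genes set against 17 alternatives, 403 of 646 calls were kept, 243 were lost and 0 changed sign, and NAT10 alone kept its call in all of them (log2 fold change −1.15 to −1.03 with a library left out). Against 13 lower and 25 higher genes in the 4 DLD-1 libraries, the model of all 8 libraries gave 2 and 0, no filter on low counts 1 and 0 (463 lower and 461 higher at an unadjusted p under 0.05), curated transcripts alone 1 and 1, limma on log2(FPKM + 1) 2 and 0 (346 and 505 unadjusted), limma on log2(FPKM + 0.1) 2 and 0 (342 and 517 unadjusted), thinning to the smallest library 27 and 40, and GC correction 23 and 36. With a library left out they ran from 15 to 97 and from 14 to 122. At the limits of the study, DESeq2 gave 60 and 85 in place of 166 and 175, curated transcripts 209 and 276, and leaving out a library 172 to 348 and 177 to 407. The difference between lines passed for 21 genes with DESeq2 and for 0 to 2 with a DLD-1 library left out, 0 being without shNAT10 replicate 1 (994 at an unadjusted p under 0.05, edgeR). With 1 sample left in a group, it was assumed to vary like the others. The cause was not tested.

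The labels do not state whether the replicate numbers pair the libraries. Deviations of same-numbered libraries from their group means correlated at r = 0.057 over 12482 genes. With 2 libraries per group this single correlation cannot settle the pairing. With the number as a replicate block, 47 genes were lower and 53 higher, all 38 kept their call, the limits of the study gave 185 and 184, and NAT10 was at −1.09.

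Values near 0 turned sign for genes on which the study centred, none of them called. GSK3B (−0.0042) was at 0.0022 with curated transcripts, 0.0017 and 0.0018 on log2(FPKM + 1) and log2(FPKM + 0.1), 0.0032 after thinning, 0.019 after GC correction and −0.057 to 0.046 with a library left out. KIF23 (−0.023) was at 0.61, PALS2 (0.053) at −0.19 with curated transcripts, and after GC correction KIF23 was at 0.010 and UBA1 (0.023) at −0.0017. Leaving out a library gave −0.052 to 0.0065 for KIF23, −0.039 to 0.15 for PALS2, −0.0076 to 0.052 for UBA1, −0.055 to 0.19 for MKI67 (0.060), −0.16 to 0.0086 for BCL2L1 (−0.076) and −0.00057 to 0.14 for CCND1 (0.068).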
